A study of Mus musculus with 8 samples.

Results

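The 9 genes described here carry out or control lipolysis, the release of stored fat from the adipocyte: Pnpla2, Lipe and Mgll, Abhd5 and G0s2, Adrb1, Adrb3 and Adora1, and Pde3b. They were chosen by name, with earlier results of these data known. Their probes were found through the RefSeq transcript that each probe is tied to. This gave 16 of the 55681 gene probes on the array and 9 of the 25065 genes or features tested. RNA was measured in gonadal white fat of mice lacking Rap1 (gene Terf2ip), which encodes a protein of the telomere complex shelterin that also binds elsewhere in the genome, and of wild-type (WT) mice. There were 4 Rap1-/- and 4 WT mice, all 10 weeks old, labelled as biological replicates and measured on 1 one-colour Agilent array each. Both genotypes had the background C57BL6/129SV (90%:10%). The deletion is in the whole body and is constitutive: floxed Rap1 mice were crossed with mice whose cre is driven by the adenoviral EIIa promoter, active in the early embryo, and the cre allele was then bred out. The mice were young females, per the study's text. A difference between genotypes in these arrays can therefore not be assigned to a loss of Rap1 in fat cells, and in whole fat fewer cells of a type and less RNA per cell cannot be told apart.

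Triglyceride in the lipid droplet is cut in steps, first by adipose triglyceride lipase, then by hormone-sensitive lipase and last by monoglyceride lipase, giving fatty acids and glycerol. Catecholamines bind β-adrenergic receptors, which act through a stimulatory G protein, adenylyl cyclase and cyclic AMP on protein kinase A, and the kinase activates hormone-sensitive lipase and frees the cofactor of the first lipase from its place on the droplet. Insulin opposes this by activating the phosphodiesterase PDE3B, and adenosine opposes it through a receptor coupled to an inhibitory G protein. Much of this control acts on proteins that already exist, by phosphorylation and binding, which arrays of RNA do not read.

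None of the 9 genes passed the test between genotypes. Levels are given as the log2 processed intensity minus the 75th percentile of the same array, so 0 is the level of a spot at that percentile, and a difference is always Rap1-/- minus WT with its standard error from limma. The mean was lower in Rap1-/- for 8 of 9 genes and higher for 1 of 9, G0s2, and the median difference was -0.24. Over all 25065 genes the median difference was -0.04, with a lower mean for 59.9% and a higher one for 40.1%. Among the 4384 tested genes at least as bright as the dimmest of the 8 members other than Adrb1, 73.1% had a lower mean and the median was -0.07. The adjusted p from limma was between 0.874 and 0.948 for the 9 genes, so 0 of 9 were called, against 0.00399% of all genes. Without adjustment 1 of 9, Lipe, had a p under 0.05, where 4.98% of all genes did. The 4 Rap1-/- arrays stood wholly below the 4 WT arrays for 0 of 9 genes, against 2.36% of all genes. They stood wholly above them for 0 of 9, against 0.898%. The direction depended on the scaling: with arrays scaled to the 7 spiked-in E1A control probes, 5 of 9 were lower, Pnpla2, Mgll and Adrb1 turned positive, and the median of the 9 was -0.02 while the median of all genes was 0.18. On WT replicate 3 the E1A controls stood 4.58 log2 units above the 75th percentile. The other WT arrays had 3.98 to 4.16 and the Rap1-/- arrays 3.92 to 4.11. The shift under E1A scaling thus rests in large part on WT replicate 3. Relative to the median of all genes the 9 genes stood at -0.20, which E1A scaling cannot alter because it shifts every gene alike. This was -0.16 after quantile normalisation, under which Mgll also turned positive, and -0.13 with normexp background correction.

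**Figure D1:**
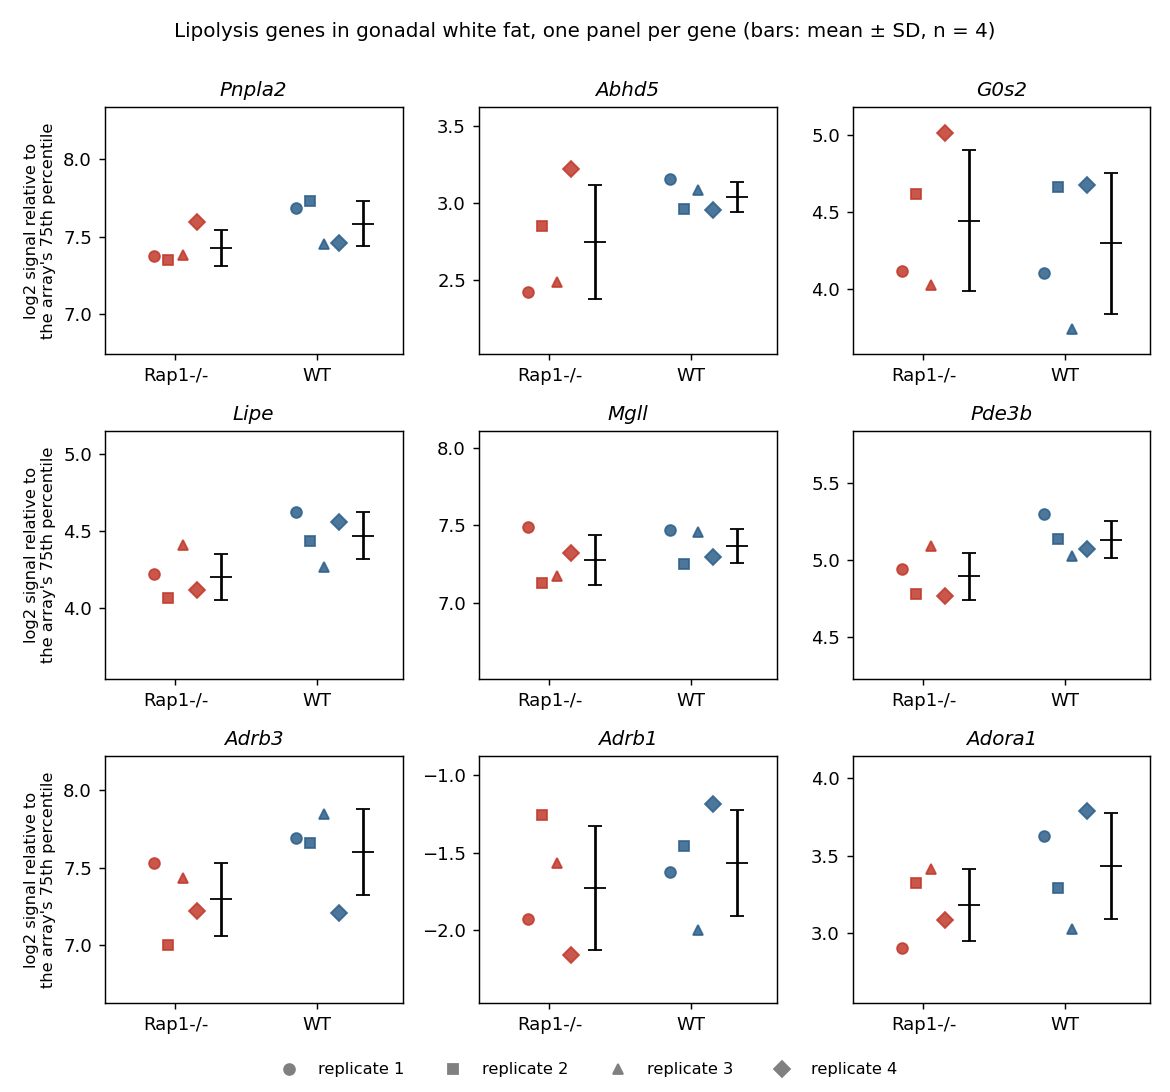
Level of each of the 9 genes on each array, as log2 processed intensity minus the 75th percentile of the array, with 1 point per array and the mean ± SD of the 4 Rap1-/- and 4 WT arrays. The genotypes overlap for all 9 genes, and 8 of 9, all but G0s2, have 3 or 4 Rap1-/- points below the WT mean.

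On the arrays as a whole, the 75th percentile of intensity ranged from 302 to 497 and 59.7% to 65.2% of gene spots were well above background. Both genotypes were on both slides, but WT arrays took positions 1 and 2 and Rap1-/- arrays positions 3 and 4 on each, so position and genotype cannot be told apart. The label was borne out by one Terf2ip probe, A_52_P381806, which passed background on every WT array and in none of the 4 Rap1-/- mice, where it was at least 50.5-fold lower. The other Terf2ip probe, A_55_P2094079, was higher in Rap1-/- by 2.38 ± 0.09, and through it Terf2ip was the 1 gene of all tested that limma called. All 10 adipocyte markers were well above background on all 8 arrays.

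Promoter sequence of 7 of the 9 genes was at hand from RefSeq (GRCm38.p6), 10 promoters of 300 bases each, from 250 before to 50 after the start. Adrb3 and Pde3b had no entry. The windows below are shown because cyclic AMP is the messenger of this pathway and its response element, TGACGTCA in full and TGACG on one side, can be read directly in them. The full element was in 0 of 10 member promoters and in 1.79% of 32841 promoters, and TGACG on either strand, which the full element contains, was in 4 of 10 and in 20.8% of all. Capitals mark TGACG or its reverse complement in the 30-base windows that lie wholly before the start:
Abhd5, chr9:122351476-122351505, plus strand: acacgggcggaaTGACGcattaatggtcat
Adrb1, chr19:56722015-56722044, plus strand: gctgcgggagccTGACGcgcggccccgggg
G0s2, chr1:193273409-193273438, minus strand: acacCGTCAcctggtggtctcctcttcagc
The fourth match, in an Mgll promoter, lies after the start. The E-box CACGTG, which reads the same on both strands, was in 2 of 10 member promoters and in 7.15% of all, and is in capitals here:
Lipe, chr7:25396125-25396154, minus strand: aacagggacgacCACGTGagggggcggagg
Mgll, chr6:88724356-88724385, plus strand: gggggccgggcaCACGTGgggccccggcgc
The telomere repeat TTAGGG was in 0 of 10 member promoters on either strand and in 10.6% of all promoters. On chromosome arms RAP1 binds, per the study, preferentially to this repeat in tandem. The tandem repeat was in 0 of 10 member promoters and in 0.0122% of all, too rare for its absence from 10 promoters to be informative. These are matches of letters, and no binding was measured here.

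Pnpla2 (chr7:141455188-141460743 on GRCm38.p6, as all gene positions here) encodes adipose triglyceride lipase, which starts lipolysis by removing the first fatty acid. Its probe read 7.38, 7.35, 7.38 and 7.60 in Rap1-/- replicates 1 to 4 and 7.69, 7.73, 7.46 and 7.46 in the WT replicates. The first 3 Rap1-/- arrays lay within a narrow band below all WT arrays, and the fourth lay between the WT values. The means were 7.43 ± 0.12 and 7.58 ± 0.15 (SD, n = 4 each), a difference of -0.16 ± 0.10 or 10.3% less signal in Rap1-/-, with an adjusted p of 0.878 (limma). On slide 1 the difference was -0.35, and on slide 2 it was 0.03, so the lower mean came from 1 slide.

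Lipe (chr7:25379527-25398486) encodes hormone-sensitive lipase, the diglyceride lipase that protein kinase A phosphorylates, and its probe had the smallest p of the 9 genes. It gave 4.22, 4.07, 4.41 and 4.12 on the Rap1-/- arrays against 4.62, 4.44, 4.27 and 4.56 on the WT arrays. All but one of the Rap1-/- arrays were below every WT array, and the groups overlapped through Rap1-/- replicate 3 and WT replicate 3. The difference was -0.27 ± 0.11, with a 95% interval from -0.53 to -0.01, equal to 17.0% less signal. The limma p was 0.0451 before and 0.874 after adjustment, and the two-sided exact permutation test of 4 against 4 arrays gave p = 0.0571, where the smallest it allows is 0.0286. The difference had the same sign on both slides, at -0.39 and -0.15. With E1A scaling it was -0.05.

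Mgll (chr6:88724412-88828360) encodes monoglyceride lipase, which completes lipolysis and also degrades an endocannabinoid, and it had 4 probes. The brightest, A_55_P2063316, read 7.49, 7.13, 7.17 and 7.32 in Rap1-/- against 7.47, 7.25, 7.45 and 7.30 in WT. The genotypes were interleaved, with the highest and the lowest array both Rap1-/-, and the difference was -0.09 ± 0.11 (adjusted p 0.909, limma). A second probe of the same transcript differed by -0.12 ± 0.10. The probes of another Mgll transcript differed by 0.04 ± 0.15 and, for A_55_P2063311, by 0.25 ± 0.32. The 4 probes thus disagreed in sign.

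Abhd5 (chr9:122351616-122381524) encodes CGI-58, the cofactor that adipose triglyceride lipase needs for full activity, and its 3 probes all read lower in Rap1-/-. The brightest gave 2.42, 2.85, 2.49 and 3.22 in Rap1-/- and 3.16, 2.96, 3.08 and 2.96 in WT. The WT arrays lay close together, while the Rap1-/- arrays were spread on both sides of them, with replicate 4 the highest of all 8. The means were 2.75 ± 0.37 and 3.04 ± 0.10, a difference of -0.29 ± 0.18 (adjusted p 0.874, limma). The other probes differed by -0.22 ± 0.16 and -0.19 ± 0.19.

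G0s2 (chr1:193272160-193273188) encodes an inhibitor that binds adipose triglyceride lipase, and it alone of the 9 genes had a higher mean in Rap1-/-. Its probe read 4.12, 4.62, 4.03 and 5.01 in Rap1-/- against 4.11, 4.66, 3.75 and 4.67 in WT. In both genotypes replicates 2 and 4 were high and replicates 1 and 3 low, and the ranges overlapped almost fully. The difference was 0.15 ± 0.28 (adjusted p 0.948, limma), with an interval from -0.50 to 0.80, the widest of the 9. It was -0.02 on slide 1 and 0.31 on slide 2, and -0.04 without either Rap1-/- replicate 4 or WT replicate 3.

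Adrb3 (chr8:27225776-27230845) encodes the β3-adrenergic receptor, the main catecholamine receptor of the mouse adipocyte, and both of its probes read lower in Rap1-/-. The brighter gave 7.53, 7.0005, 7.43 and 7.22 in Rap1-/- and 7.69, 7.66, 7.85 and 7.21 in WT. All 4 Rap1-/- arrays were below the other 3 WT arrays, but WT replicate 4 was lower than 3 of them. The difference was -0.30 ± 0.17, the largest of the 9 in size, equal to 19.04% less signal (adjusted p 0.874, limma), and it was -0.41 on slide 1 and -0.20 on slide 2. The second probe differed by -0.27 ± 0.21. Its arrays gave 4.32, 3.55, 4.32 and 3.95 against 4.41, 4.14, 4.64 and 4.04, with the lowest WT array again replicate 4.

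Adrb1 (chr19:56722117-56725150) encodes the β1-adrenergic receptor, which also couples to adenylyl cyclase, and its probes lay below the 75th percentile on all 8 arrays while still well above background. The brighter gave -1.93, -1.25, -1.57 and -2.16 in Rap1-/- and -1.62, -1.46, -1.999 and -1.18 in WT. The genotypes were interleaved, and the difference was -0.16 ± 0.23 (adjusted p 0.923, limma). The second probe differed by -0.12 ± 0.13.

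Pde3b (chr7:114415222-114537938) encodes the phosphodiesterase through which insulin lowers cyclic AMP in fat cells, so its product works against lipolysis. Its probe read 4.94, 4.78, 5.09 and 4.77 in Rap1-/- against 5.30, 5.14, 5.02 and 5.07 in WT. As for Lipe, 3 Rap1-/- arrays were below every WT array and replicate 3 was not. The difference was -0.24 ± 0.11, with a 95% interval from -0.48 to 0.00465, or 15.2% less signal. The limma p was 0.0536 before and 0.874 after adjustment, and the exact permutation p was 0.0857. On the slides the difference was -0.36 and -0.12, and with E1A scaling -0.02.

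Adora1 (chr1:134199215-134235457) encodes the adenosine A1 receptor, which restrains adenylyl cyclase. Its probe read 2.90, 3.33, 3.42 and 3.08 in Rap1-/- against 3.63, 3.29, 3.03 and 3.79 in WT. The highest values were WT replicates 1 and 4, but WT replicate 3 was among the lowest. The difference was -0.25 ± 0.19 (adjusted p 0.881, limma), -0.35 on slide 1 and -0.16 on slide 2.

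Of the members that drive lipolysis, Pnpla2, Lipe, Mgll, Abhd5, Adrb1 and Adrb3 all had lower means in Rap1-/-, and of those that restrain it Pde3b and Adora1 had lower means and G0s2 a higher one. None passed the test. The median within-genotype SD was 0.26 for the 9 genes and 0.20 over all tested genes. The intervals of Pnpla2, Lipe, Mgll and Pde3b were the narrowest of the 9, and none of these reached beyond -0.53. For Abhd5, Adrb1, Adrb3 and Adora1 the lower ends lay between -0.70 and -0.68.

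**Figure D2:**
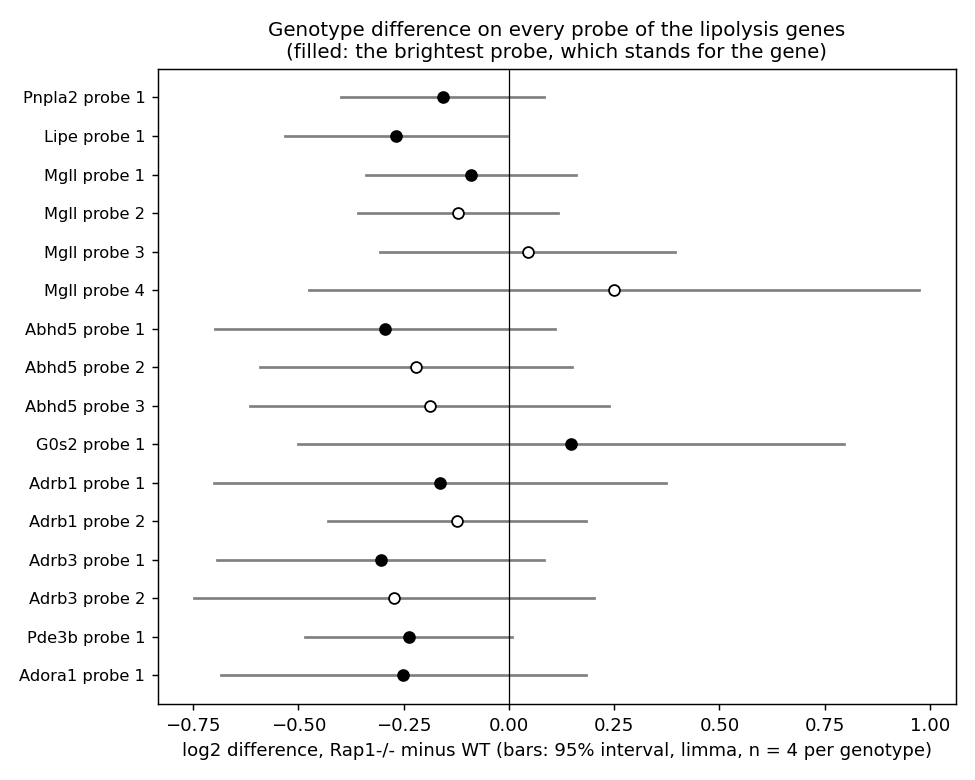
Difference in log2 intensity, Rap1-/- minus WT, for each of the 16 probes of the 9 genes, with bars giving the 95% interval from limma. The value is below 0 for 13 of 16 probes, and the interval excludes 0 for the Lipe probe.

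**Figure D3:**
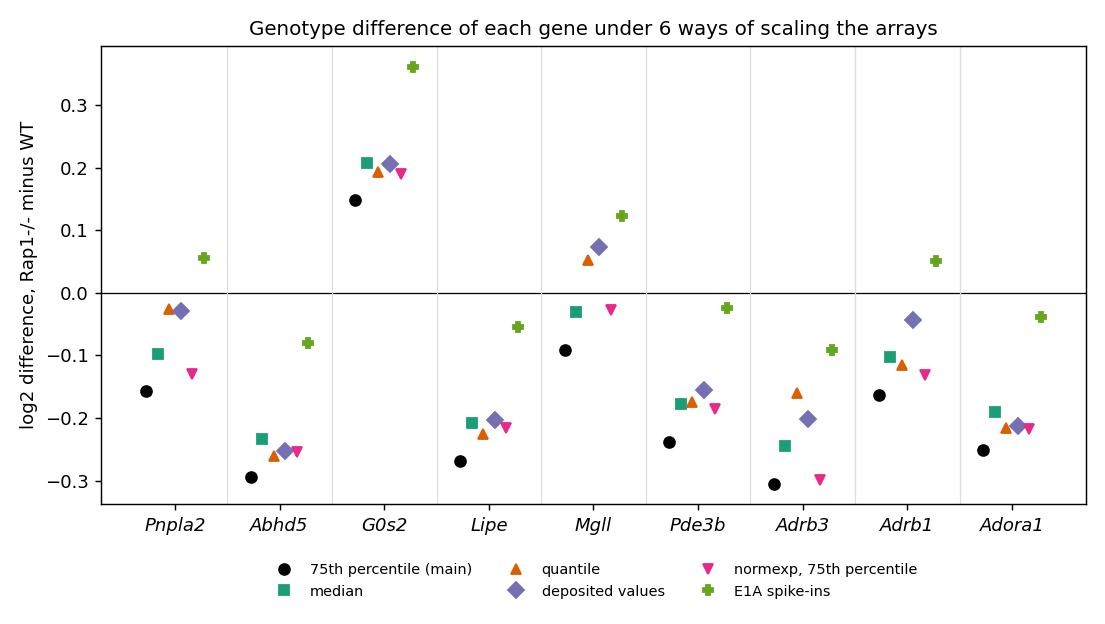
Log2 difference of each of the 9 genes under 6 scalings or corrections, with 1 symbol per setting. Scaling to the E1A controls gives the highest value for each gene, and Mgll lies above 0 also after quantile normalisation and in the deposited values.

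Lipe and Pde3b followed one another closely from array to array. Over the 8 arrays Pearson's r was 0.934 (exact permutation p = 0.000818, adjusted p 0.0295 over 36 pairs of members) and Spearman's rho was 0.905 (exact p = 0.00456, adjusted p 0.164). Without WT replicate 1 and Rap1-/- replicate 2, the arrays farthest from the median of Lipe, r was 0.853, after removing the genotype means it was 0.867, and on the slides it was 0.999 and 0.848. This was 1 of 36 pairs to pass, 3 passed before adjustment, and 26 of 36 had r above 0. The adjusted p passed in 6 of 16 alternatives, where r ran from 0.785 to 0.984. The probe filters and the mean of probes are among these 6 but repeat the main values, because each gene has 1 probe. The other passes came with median scaling, E1A scaling and an array left out. The adjusted p was 0.555 with the deposited values, and among the 8 fits that leave out an array it passed only without WT replicate 4.

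Both genes also moved with the adipocyte markers, a list of 10 genes that mature fat cells express (Adipoq, Lep, Retn, Cfd, Car3, Pparg, Cebpa, Agpat2, Acvr1c and Slc2a4). The mean of these markers, each centred on its own mean, ranged from -0.15 to 0.02 in Rap1-/- and from 0.01 to 0.23 in WT, and 9 of 10 had lower means in Rap1-/-, with a median of -0.24. That median was -0.04 after quantile normalisation, -0.06 in the deposited values and -0.03 with E1A scaling. By limma 0 of the 10 markers were called, and 3, all lower, had an unadjusted p under 0.05, where 4.98% of all genes did. The exact permutation p of the marker mean between genotypes was 0.0857. The correlation with this mean was 0.851 for Lipe (exact permutation p = 0.00469, adjusted p 0.0211 over 9 relations; rho 0.905, adjusted p 0.0326) and 0.900 for Pde3b (exact p = 0.00233, adjusted p 0.0210; rho 0.881, adjusted p 0.0326). Adora1 had r = 0.686 (adjusted p 0.172), G0s2 had r = -0.410, and 2 of 9 relations passed. After removing the genotype means r was 0.704 for Lipe and 0.803 for Pde3b, and on slides 1 and 2 it was 0.884 and 0.842 for Lipe and 0.864 and 0.990 for Pde3b. Without the 2 arrays farthest from the median of the markers, WT replicate 1 and Rap1-/- replicate 4, r was 0.750 for Lipe (exact p = 0.0931) and 0.732 for Pde3b (exact p = 0.0722), so the tests rest in part on those arrays. Both calls were lost without either of these arrays alone, with adjusted p values of 0.182 for Lipe and 0.168 for Pde3b without WT replicate 1 and 0.122 for both without Rap1-/- replicate 4. They were also lost after quantile normalisation (adjusted p 0.192 for both) and with the deposited values (0.165 for both). With the marker mean as a covariate, which was added after seeing the data, the genotype difference was -0.09 for Lipe, -0.05 for Pde3b and -0.25 for Adrb3. In the same fit Pnpla2 was at -0.15, Mgll at -0.11 and Abhd5 at -0.37, while G0s2 was at -0.16, Adrb1 at 0.03 and Adora1 at 0.04.

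The markers of other cell types were read in the same arrays, and by limma 0 of them were called. An unadjusted limma p under 0.05 was found for 4, all of them mesothelium markers, where 4.98% of all genes had one. All 10 mesothelium markers had higher means in Rap1-/-, with a median of 0.68 that was 0.41 without WT replicate 3. Their list mean ranged from 0.17 to 0.51 in Rap1-/- and from -1.13 to 0.22 in WT (exact permutation p = 0.0571). Of these markers 9 of 10 were well above background on all arrays. Cldn1 passed background in 4 of 4 Rap1-/- and 1 of 4 WT mice, so it was kept mainly through Rap1-/-, where it read higher. Fibroblast markers had higher means for 8 of 10 (median 0.28, and 0.16 without WT replicate 3) and macrophage markers for 8 of 9 (median 0.21, and 0.12 without Rap1-/- replicate 1). Skeletal muscle markers had lower means for 9 of 10, with a median of -1.42 that ran from -2.71 without Rap1-/- replicate 2 to -0.19 without Rap1-/- replicate 4. Their list mean was from -4.70 to 3.23 in Rap1-/- and from -0.77 to 2.03 in WT (exact permutation p = 0.514), with 7 of 10 well above background on all arrays. The median of the endothelial markers (-0.04, 7 of 10 with lower means) turned to 0.03 without Rap1-/- replicate 2 or WT replicate 2. That of the lymphocyte markers (0.10, 7 of 10 with higher means) turned to -0.02 without WT replicate 2. Of the lymphocyte markers 8 of 10 were well above background on all arrays. Cd8a, among those with a higher mean, passed background in 3 of 4 Rap1-/- and 1 of 4 WT mice. The part of these cells in the differences of the 9 genes was not tested. Fits with a marker mean as a covariate cannot separate fewer cells from less RNA per cell. The adipocyte mean was also nearly aligned with genotype, at -0.15 to 0.02 in Rap1-/- and 0.01 to 0.23 in WT. The median of the 9 genes was -0.18 with the muscle mean, -0.30 with the mesothelium mean and -0.11 with the adipocyte mean in the fit, against -0.24 without.

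The wider pathway was read through 9 lists with 100 genes, of which 96 were measured. By limma 0 of 96 were called, 54 had lower and 42 higher means, and the median difference was -0.03. Before adjustment 2 had a p under 0.05 with a lower mean, against 3.31% of all genes, and 2 with a higher mean, against 1.67%. The higher ones were Fos and Adra1a. Adra1a passed background in 2 of 4 WT mice, so its p rests in part on WT values not well above background. Both lower ones, Cidec and Fabp4, also had all 4 Rap1-/- arrays below all 4 WT arrays, which makes 2 of 96 against 2.36% of all genes. E1A scaling adds the same 0.21 to every difference, in large part through WT replicate 3. This puts the medians of all 9 lists above 0 along with that of all genes, 0.18.

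Among the 9 proteins of the droplet surface and fatty acid carriage, 6 had lower means and the median was -0.09. Cidec, which helps droplets fuse into a single large one, gave 8.399, 8.26, 8.44 and 8.12 on the Rap1-/- arrays against 8.63, 8.65, 8.69 and 8.47 on the WT arrays, a difference of -0.31 ± 0.10. Fabp4, the fatty acid carrier of the fat cell, read 9.47, 9.49, 9.33 and 9.28 against 9.78, 9.56, 9.72 and 9.60, a difference of -0.27 ± 0.09. The adjusted p was 0.874 for each (limma). Hilpda, an inhibitor of adipose triglyceride lipase, differed by 0.23 ± 0.12.

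Of 11 other lipases and hydrolases 9 had lower means, with a median of -0.04, and Ddhd2 differed by -0.21 ± 0.12, Ces1d, a carboxylesterase of the droplet, by 0.16 ± 0.17 and Lipa, the lysosomal acid lipase, by -0.08 ± 0.08. Upstream, 5 of 13 G proteins and adenylyl cyclases had lower means (median 0.05), with Adcy7 at 0.32 ± 0.16, Adcy4 at -0.15 ± 0.12 and the inhibitory subunit Gnai3 at 0.11 ± 0.09. Subunits, anchors and inhibitors of protein kinase A were lower for 6 of 9 (median -0.12), with an inhibitor on each side. Among the lower were Prkaca, a catalytic subunit, at -0.12 ± 0.09 and the regulatory subunits Prkar1a at -0.14 ± 0.09 and Prkar2a at -0.14 ± 0.11. None of these differences passed the test.

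Other phosphodiesterases were lower for 6 of 14 (median 0.04), where Pde4b, which also degrades cyclic AMP, differed by 0.32 ± 0.15, Pde4c by -0.14 ± 0.12 and Pde1a by -0.12 ± 0.11. In the insulin arm 8 of 10 had lower means (median -0.04), with the insulin receptor Insr at -0.18 ± 0.11, Akt2 at -0.25 ± 0.16 and Pdpk1 at -0.09 ± 0.09. Other receptors that raise or restrain lipolysis were lower for 9 of 16 (median -0.02). Of these Npr3, the clearance receptor for natriuretic peptides, differed by 0.46 ± 0.26 and the thyrotropin receptor Tshr by 0.21 ± 0.13.

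Adra1a, an α1-adrenergic receptor, was dim, passing background in 4 of 4 Rap1-/- and 2 of 4 WT mice, so it was kept mainly through the genotype where it read higher and its fitted difference of 1.30 ± 0.51 (adjusted p 0.874, limma) rests in part on WT values not well above background. It had levels of -3.17, -2.84, -4.12 and -2.73 against -5.61, -5.07, -3.97 and -3.44. The genotypes overlapped through Rap1-/- replicate 3. The list for glycerol and fatty acid exit also holds genes of fatty acid uptake and of glycerol phosphate supply, so it does not read exit alone. Of its 6 genes 1 was lower (median 0.03), namely Gpd1, which makes glycerol phosphate, at -0.43 ± 0.22. Gk differed by 0.07 ± 0.19 and Aqp3, a glycerol channel, by 0.38 ± 0.36. Aqp3 passed background in 3 of 4 Rap1-/- and 1 of 4 WT mice, so its WT values are mostly not well above background.

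Of 8 genes that respond to cyclic AMP 4 had lower and 4 higher means, with a median of 0.07. Fos, an immediate early gene, gave -1.28, -0.80, 0.54 and -2.01 on the Rap1-/- arrays against -2.25, -2.29, -1.71 and -2.07 on the WT arrays, a difference of 1.19 ± 0.48. All but one of the Rap1-/- arrays were above every WT array, and replicate 3 was far above the rest. Nr4a1, also an immediate early gene, differed by 0.83 ± 0.54, and Ppargc1a, a coactivator induced by adrenergic signals, by -0.31 ± 0.15. None passed the test, the adjusted p of Fos being 0.874 (limma).

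**Figure D4:**
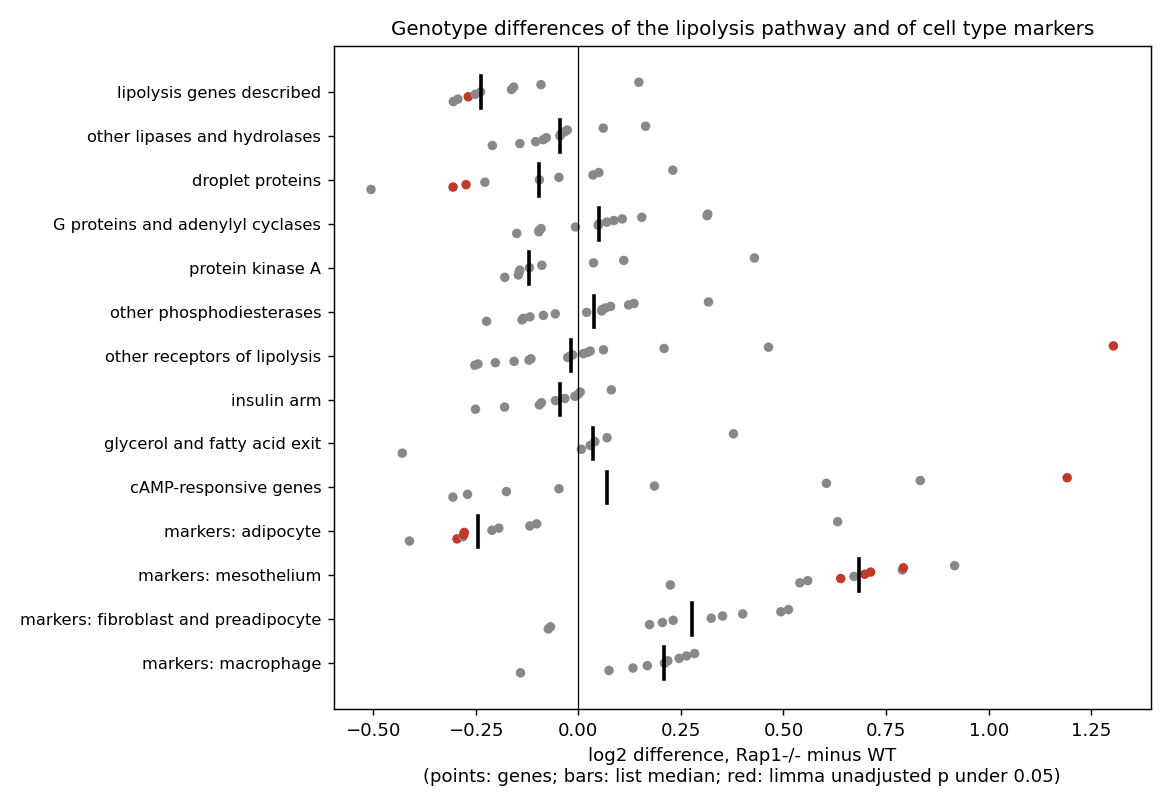
Log2 difference, Rap1-/- minus WT, of each measured gene of the 9 lipolysis genes, the 9 pathway lists and 4 marker lists, with 1 point per gene, a bar at each list median and red for a limma p under 0.05 before adjustment. The 9 genes have a median of -0.24, the adipocyte markers -0.24 and the mesothelium markers 0.68. After quantile normalisation the median is -0.16 for the 9 genes and -0.04 for the adipocyte markers.

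The tested gene whose pattern over the 8 arrays was most like each member was found among 14925 genes with a symbol. Because it was picked as the highest of so many, the correlation is a description with no test, and it follows 8 points that share their arrays. Among the lipases, Pnpla2 was most like Rasa3 (r = 0.981), Lipe like Tmem179 (r = 0.970) and Mgll like Zfp870 (r = 0.964). For the regulators of the first lipase, Abhd5 was most like Eefsec (r = 0.965) and G0s2 like Heatr1 (r = 0.952). For the receptors and the phosphodiesterase, Adrb1 was most like Bag3 (r = 0.982), Adrb3 like L3mbtl3 (r = 0.979), Adora1 like Pank3 (r = 0.973) and Pde3b like Lrrc4c (r = 0.989). No member was the closest match of another.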

How the data were processed

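The authors labelled gonadal fat RNA with Cy3 and ran 1 Agilent array per mouse. The deposited scanner output gives each spot a processed intensity on a linear scale, before any normalisation across arrays, and flags for background, saturation and outliers. Per the file headers it was made with Feature Extraction 10.7.3.1, which is not the version in the study's methods, from an mm9 design. The authors' deposited value table is in log2 units and was matched on every array by normexp correction (offset 50) with quantile normalisation, so it served as an alternative.

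Groups came from the labels. From each log2 intensity the array's own 75th percentile was taken off, and spots of one probe were averaged. Of 62976 spots 3671 were controls and 0 gene spots were saturated; 13 probes lacked a value and were left out. Probes had to pass the background flag on 4 or more of 8 arrays (33983 did), and the brightest probe stood for a gene. Probes were named by RefSeq accession through a GRCm38.p6 table (26056 probes, 46.8%). Arrays give no read depth, so the number of arrays limits the precision. Genotypes were compared with limma 3.58.1 in R 4.3.3 over 25065 genes or features, adjusted by Benjamini-Hochberg, with a threshold of 0.05. Correlations used exact permutation of pairings, and figures used Python 3.11.15 with matplotlib 3.10.9. The fit was tested on simulated data.

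The text names all 9 genes, Terf2ip, up to 3 genes of smallest p in each pathway list, and the gene most like each member. The adipocyte markers are also named, and values of some of them are given outside this rule, as further observations. Cldn1 and Cd8a are named only for their background calls. The genes and lists were chosen with earlier results of these data known. Alternatives covered background correction, scaling, the deposited values, probe filter and choice, slide, variance model, marker covariates and each array left out. Replicate numbers were not taken as pairs, since same-numbered arrays deviated from their genotype means with correlations from -0.22 to -0.13. The files give no probe sequences or positions.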

Additional observations from a re-analysis of the deposited data

Results flagged for a closer look

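One array stood apart from its genotype among the 32 groups of 4 arrays examined (16 probes in each genotype). Rap1-/- replicate 4 read 7.60 for Pnpla2 while the other 3 Rap1-/- arrays lay between 7.35 and 7.38, so the gap to the nearest of them was 0.860 of the whole range, above Dixon's critical value of 0.829. Chance flags about 1 in 20 such groups. Without this array the Pnpla2 difference was -0.21.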

How the results depend on the processing

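With 4 arrays a genotype the precision was limited by their number. Over 24 alternatives the 9 genes gave 216 differences, of which 188 were negative and 0 passed; the adjusted p from limma ran from 0.552 up. Lipe, Abhd5, Adrb3 and Pde3b kept their sign in all 24. These totals include settings that cannot change a member's difference: the probe filters, the slide and replicate blocks and the variance model. The signs under those settings were fixed beforehand and add no support. Mgll turned to 0.0529 after quantile normalisation, 0.12 with E1A scaling, 0.0724 in the deposited values and 0.0209 with the mean of its probes. Pnpla2 turned to 0.0558 with E1A scaling and 0.0321 within slide 2, and Adrb1 to 0.0505 with E1A scaling and 0.0264 with the adipocyte marker covariate, under which Adora1 was 0.0362. G0s2 turned to -0.0154 within slide 1, -0.30 with the mesothelium covariate, -0.16 with the adipocyte marker covariate and between -0.0417 and 0.29 with an array left out. With E1A scaling 5 of 9 genes were lower. Over all genes 1 was called, against 2 with normexp correction, the deposited values or a trended and robust variance, and 0 within slide 1 or slide 2. For none of these was the cause tested. At an unadjusted limma p under 0.05, 418 of all genes were higher and 830 lower, against 1175 and 95 with E1A scaling, 485 and 481 with median scaling, 602 and 563 after quantile normalisation, 608 and 530 in the deposited values and 291 and 958 with normexp. That total of 1248 was 2305 without WT replicate 2 and 826 without WT replicate 1. A block for the replicate number cannot change a difference, because each number holds 1 array of each genotype. With this block 1 of all genes and 0 of 9 members were called, and Lipe had a limma p of 0.0956 (adjusted 0.875).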

Other observations

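Lep, which encodes the satiety hormone leptin, was the only one of the 10 adipocyte markers with a higher mean in Rap1-/-. It gave 3.46, 3.41, 3.02 and 2.47 on the Rap1-/- arrays against 2.40, 2.71, 1.72 and 2.99 on the WT arrays, a difference of 0.63 ± 0.31 that did not pass the test (adjusted p 0.874, limma). The other 9 markers differed by -0.41 (Agpat2, an enzyme of triglyceride synthesis) to -0.10 (Acvr1c, a receptor of adipocytes), with Cebpa and Pparg, both transcription factors of fat cell identity, at -0.30 and -0.28.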
